A study of Xenopus laevis with 4 samples.

Results

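Ephrins and Eph receptors are the ligands and receptor tyrosine kinases of a signalling system that works between touching cells. The count table held 23 features of this family among 49078 in all, chosen by symbol alone: names that begin with efna, efnb, epha or ephb followed by a digit, with the L and S homeologs of the allotetraploid frog Xenopus laevis counted as separate features. They comprised 10 ephrin ligand features of 8 symbols and 13 receptor features of 10 symbols, or 12 A-class and 11 B-class features. RNA was measured in 2 libraries of captured EU-RNA and 2 libraries of total RNA, the latter called Normal in the labels. All 4 came from embryos at the mid-blastula transition (labelled as close to 9 hours after fertilization), when the embryo begins to transcribe its own genome on a large scale. EU-RNA came from embryos that had received 10 nl of 50 mM 5-ethynyl uridine by injection at the 1-cell stage, so that RNA made afterwards could be linked to biotin and pulled down. Total RNA came from normal embryos and held maternal and newly made RNA together, per the labels. The labels attach the injection protocol to all 4 samples, but the extraction text separates normal from EU-injected embryos. On the latter reading, followed here, the groups differed in the injection as well as in the capture.

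Ephrins of the A class are tied to the membrane by a lipid anchor, and those of the B class span it and carry a cytoplasmic tail that can itself signal. EphA receptors bind mainly ephrin-A and EphB receptors mainly ephrin-B, with EphA4 able to bind both kinds. Signals run into the receptor cell and, in reverse, into the ligand cell, and they commonly end in local loss of adhesion or repulsion. In Xenopus the system is known for keeping ectoderm and mesoderm apart during gastrulation and for guiding cranial neural crest.

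Library totals ranged from 47598265 estimated counts (Normal replicate 1) to 209445802 (Normal replicate 2), with the EU-RNA libraries between them. Levels are CPM, that is counts scaled to a common library total, here with edgeR's TMM factors. They are not divided by transcript length, so they compare a feature between libraries and not one feature with another. Fold changes, also given as log2 ratios, are EU-RNA over Normal, relative to the average transcript. Zygotic genes of the mid-blastula transition, such as nodal3, nodal5 and bix1.1, summed to 2620 and 2693 CPM in EU-RNA and to 655 and 668 CPM in total RNA, with 10 of 14 features higher by edgeR and 0 lower. Maternal genes of the egg, such as h1foo and mos, summed to 454 and 476 CPM in EU-RNA and to 650 and 652 CPM in total RNA. By edgeR 2 of 10 features were lower, h1foo.L and aurka.S, and 0 higher. The maternal list was mixed. mos.L overlapped between the groups, while dazl.L and zar1.L, neither of them called, had both EU-RNA libraries above both total RNA libraries. RNA of maternal genes was thus present in the EU-RNA libraries too. How much of any level in EU-RNA was newly made RNA was not tested. Markers of later tissues summed to at most 2.34 CPM in any library, with 7 of their 14 features at 0 counts throughout, among them the hemoglobin gene hba1 and the cartilage collagen gene col2a1. Because the labels do not say whether replicates came from separate clutches, a p-value covers only the variation among these libraries, which may be technical.

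Of the 23 features, 21 had enough counts to be tested, and 7 of these were higher in EU-RNA at an adjusted p below 0.05 (edgeR quasi-likelihood F-test, Benjamini-Hochberg over the whole table). They were efna1.L, both copies of efnb2, epha2.L, both copies of epha4, and ephb3.L. The 7 made up 33.3% of the tested members, against 4.69% of all 26543 features tested. Of the 21 members, 14 had a mean level of at least 3 on the log2 CPM scale. The 7 were 50.0% of these 14, against 9.39% of all 12933 such features. No member was called lower, where 0.889% of all features were. One member had a negative fold change with an unadjusted p below 0.05 by edgeR (12.3% of all features), and this feature, ephb4.L, was the 1 member that DESeq2 called lower (7.36% of all features), while limma-voom called 0 (1.45% of all features). DESeq2 called the same 7 members higher, against 11.7% of all features. limma-voom also called 7, with efna4.L in place of efnb2.L, against 4.25% of all features. The median log2 fold change was 0.76 over the 21 members and 0.0087 over all features tested. Both EU-RNA libraries lay above both total RNA libraries for 9 of the 21 members (26.4% of all features tested) and below them for 2 (30.6% of all features). The fold change compares captured RNA with total RNA, which holds maternal RNA as well, so it does not by itself measure how much RNA was made. In whole embryos, a larger number of cells making a transcript and more RNA made per cell also cannot be told apart.

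**Figure D1:**
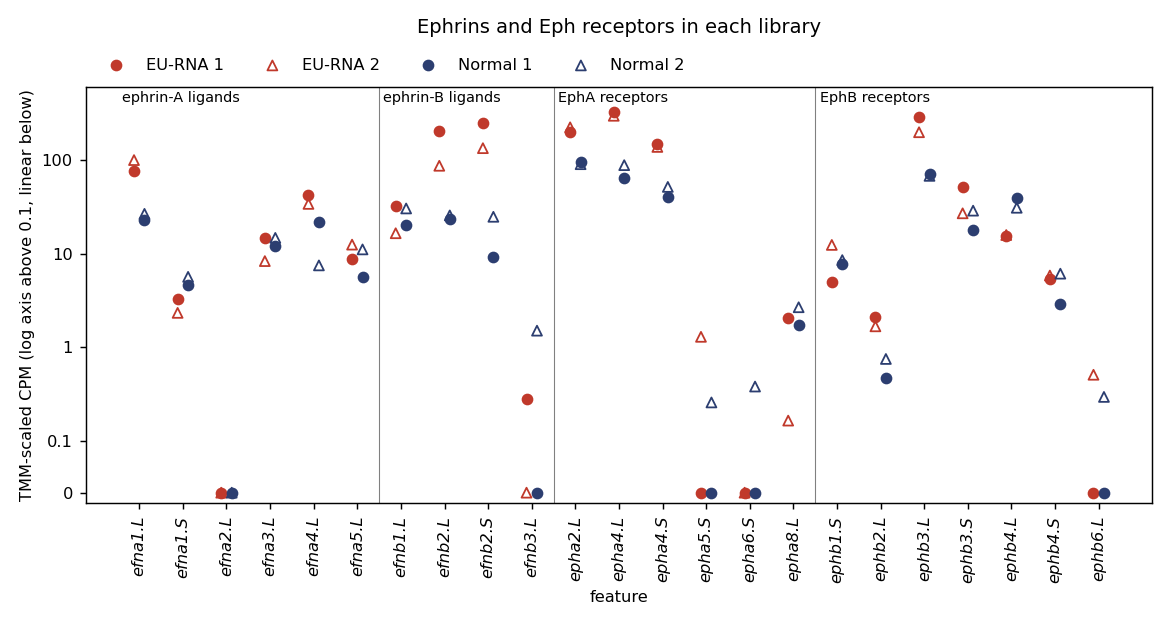
Level of each of the 23 ephrin and Eph features in each library, as TMM-scaled CPM on an axis that is logarithmic above 0.1 and linear below it. Red symbols are EU-RNA and blue symbols total RNA, with filled circles for replicate 1 and open triangles for replicate 2. Both copies of efnb2, both copies of epha4, epha2.L, ephb3.L and efna1.L show both red symbols above both blue ones, as do efna4.L and ephb2.L. The reverse is seen for ephb4.L and efna1.S.

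The ephrin-B2 gene stood furthest from total RNA among the ligands. Ephrin-B2 is a transmembrane ligand of EphB receptors and EphA4, known in Xenopus for sorting neural crest streams. efnb2.S was at 249 and 134 CPM in the EU-RNA libraries and at 9.32 and 24.8 CPM in total RNA. Each EU-RNA library was several times above either total RNA library, although libraries of a group differed widely from each other. The log2 fold change was 3.48 (SE 0.55, edgeR adjusted p = 0.0221), or 11.2-fold, higher in 2 of 2 EU-RNA libraries. efnb2.L was at 202 and 87.0 CPM in the EU-RNA libraries and at 23.7 and 25.6 CPM in total RNA. The total RNA libraries lay close together here, and the spread was between the EU-RNA libraries. Its log2 fold change was 2.55 (SE 0.42, edgeR adjusted p = 0.0245), or 5.86-fold. This call was lost by limma-voom (limma adjusted p = 0.0514).

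The other ephrin-B genes gave no such difference. efnb1.L, which encodes ephrin-B1, was at 32.3 and 16.5 CPM in the EU-RNA libraries and at 20.3 and 30.4 CPM in total RNA. The groups overlapped, with a log2 ratio of -0.054 (SE 0.44, edgeR adjusted p = 0.964). The ephrin-B3 gene efnb3.L had 24 and 0 counts in the EU-RNA libraries and 0 and 281 in the total RNA libraries. Each group thus held a library with no count, and the fitted log2 fold change of -2.42 had an SE of 3.40 (edgeR adjusted p = 0.755).

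Among the ephrin-A genes, which encode lipid-anchored ligands of EphA receptors, efna1.L was called. Ephrin-A1 is the prototype of this class. efna1.L was at 76.9 and 100 CPM in the EU-RNA libraries and at 23.2 and 26.6 CPM in total RNA. The groups were well apart, with a log2 ratio of 1.83 (SE 0.25, edgeR adjusted p = 0.0131), or 3.55-fold. Its homeolog efna1.S was a minor copy, at 3.29 and 2.33 CPM in the EU-RNA libraries and at 4.64 and 5.65 CPM in total RNA. Both EU-RNA libraries were below both total RNA libraries, but the log2 ratio of -0.87 (SE 1.05) missed the threshold (edgeR adjusted p = 0.706).

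The ephrin-A4 gene efna4.L was at 42.4 and 34.0 CPM in the EU-RNA libraries and at 22.0 and 7.49 CPM in total RNA. The groups did not overlap, but the total RNA libraries were far apart from each other. Its log2 fold change was 1.38 (SE 0.54) and missed the threshold (edgeR adjusted p = 0.183). It was called by limma-voom (limma adjusted p = 0.0472) and in 5 of the 11 other alternatives. Among these were both fits without an EU-RNA library, which called a larger share of all features higher than the main fit did. The log2 fold change of efna4.L ran from 0.80 without Normal replicate 2 to 2.36 without Normal replicate 1. The remaining ephrin-A genes overlapped between the groups or were not seen. efna3.L was at 14.7 and 8.32 CPM in the EU-RNA libraries and at 12.1 and 14.7 CPM in total RNA, with a log2 fold change of -0.22 (SE 0.52). efna5.L was at 10.7 ± 2.57 CPM in the EU-RNA libraries and at 8.35 ± 3.88 CPM in total RNA (SD, n = 2 each), with a log2 fold change of 0.35 (SE 0.64). efna2.L had 0 counts in all 4 libraries, which allows up to 0.0160 CPM in the deepest and 0.0675 CPM in the shallowest of them, for counting error only.

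In the gene order of RefSeq's Xenopus_laevis_v10.1, efna4.L and efna1.L flank a single protein-coding locus without a symbol. There efna3.L lies next to efna1.S on chromosome 8S, although its name ends in L. Of these 4 features efna1.L alone passed edgeR's test. The locus without a symbol could not enter the family, which was chosen by symbol alone, and what it encodes was not examined. No coordinates are stated, because the sources used here do not give the build behind the counts.

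Among the receptors, EphA4 and EphA2 made up the EphA calls. EphA4 binds ephrins of both classes, and its forced activation in Xenopus blastulae is known to make blastomeres lose adhesion. epha4.L was at 327 and 298 CPM in the EU-RNA libraries and at 64.1 and 88.3 CPM in total RNA. The libraries of each group lay close together relative to the gap, with a log2 ratio of 2.04 (SE 0.23, edgeR adjusted p = 0.00793), or 4.10-fold. epha4.S was at 147 and 138 CPM in the EU-RNA libraries and at 39.9 and 51.7 CPM in total RNA. Its log2 ratio of 1.64 (SE 0.22, edgeR adjusted p = 0.0127), or 3.11-fold, passed as well.

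EphA2, a receptor of epithelial cells that binds ephrin-A1, differed less. epha2.L was at 198 and 224 CPM in the EU-RNA libraries and at 94.5 and 90.4 CPM in total RNA. The log2 fold change was 1.19 (SE 0.19, edgeR adjusted p = 0.0209), or 2.29-fold. The groups were apart, but the call was lost when either Normal library was left out. The log2 fold change was then 1.23 (without Normal replicate 1) and 1.16 (without Normal replicate 2), with an SE of 0.41 in both. Such fits take their spread from the EU-RNA libraries alone.

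The other EphA features were rare. epha8.L had 176 and 22 counts in the EU-RNA libraries and 76 and 500 in the total RNA libraries, and its log2 fold change of -0.97 had an SE of 1.89. epha5.S had 0 and 173 counts in EU-RNA and 0 and 48 in total RNA. Its fitted log2 fold change of 2.29 (SE 3.29) was the largest of the EphA class, yet each group contained a library without a count and the edgeR adjusted p was 0.761. epha6.S was seen in Normal replicate 2 alone, with 71 counts, and was not tested.

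Of the EphB receptors, ephb3.L was called. EphB3 binds ephrin-B ligands and is known for cell positioning in the gut epithelium of mammals. ephb3.L was at 287 and 199 CPM in the EU-RNA libraries and at 71.3 and 67.8 CPM in total RNA. The groups were well apart, with a log2 ratio of 1.80 (SE 0.24, edgeR adjusted p = 0.0128), or 3.49-fold. Its homeolog ephb3.S was at 51.4 and 27.0 CPM in the EU-RNA libraries and at 18.0 and 28.8 CPM in total RNA. These groups overlapped, and the log2 ratio of 0.74 (SE 0.42) missed the threshold (edgeR adjusted p = 0.359). The value depended on single libraries, at 0.16 when EU-RNA replicate 1 was left out and 1.09 when EU-RNA replicate 2 was, where it passed (edgeR adjusted p = 0.000568) in a fit that called 14.9% of all features higher. It was 0.45 without Normal replicate 1 and 1.12 without Normal replicate 2, past the threshold in neither.

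ephb4.L had the lowest fold change of the tested members with an SE of 1 or less. EphB4 is the receptor best known for pairing with ephrin-B2, in the mammalian separation of veins from arteries. ephb4.L was at 15.5 and 15.8 CPM in the EU-RNA libraries and at 39.7 and 30.9 CPM in total RNA. Both EU-RNA libraries lay below both total RNA libraries, with a log2 fold change of -1.17 (SE 0.31) that missed the threshold (edgeR adjusted p = 0.0976). It was past the threshold by DESeq2 (adjusted p = 0.0305), as given above. Among the other alternatives it also passed in the fit with no low-count filter (edgeR adjusted p = 0.0380), where 3.23% of all features were lower. It passed as well when either EU-RNA library was left out, in fits that called 10.1% and 17% of all features lower. Its homeolog ephb4.S was at 5.35 and 5.83 CPM in the EU-RNA libraries and at 2.90 and 6.11 CPM in total RNA, with a log2 fold change of 0.31 (SE 0.93).

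The last EphB features were scarce. ephb1.S was at 4.98 and 12.4 CPM in the EU-RNA libraries and at 7.81 and 8.53 CPM in total RNA, so the EU-RNA libraries enclosed the total RNA ones. ephb2.L had 180 and 224 counts in EU-RNA and 21 and 140 in total RNA. Scaled to CPM these did not overlap, but the log2 fold change of 1.63 had an SE of 1.82 (edgeR adjusted p = 0.680). The gene of EphB6, a receptor whose kinase domain is inactive in mammals, was near the limit of detection, with 0 and 68 counts of ephb6.L in EU-RNA and 0 and 55 in total RNA.

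**Figure D2:**
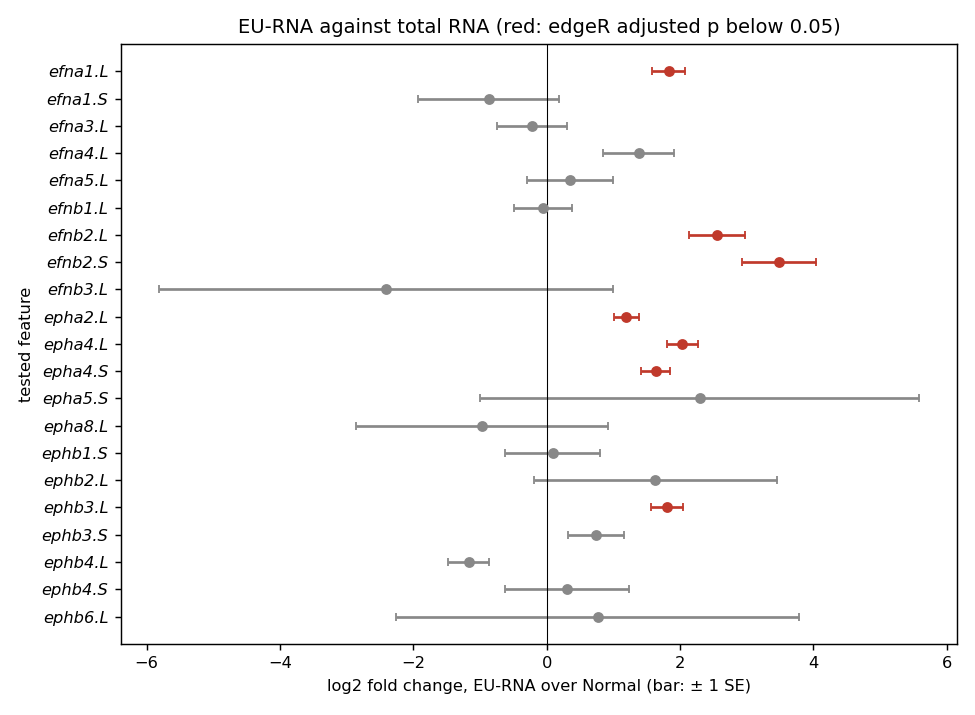
Log2 fold change of EU-RNA over total RNA for the 21 tested features, with bars of 1 SE on either side. Red points passed edgeR's test; 7 lie between 1.19 (epha2.L) and 3.48 (efnb2.S), while grey points with bars wider than 1 log2 unit on either side belong to the 6 rarest members.

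Of the 14 members that did not pass, 6 had an SE above 1 on the log2 scale, so that their fold changes were poorly determined. The 6 were efna1.S, efnb3.L, epha5.S, epha8.L, ephb2.L and ephb6.L. The other 8 had an SE of 1 or less. Counts above 0 were present in every library for 18 of the 23 features.

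Ligands and receptors had the same share of calls. Of 9 tested ligand features 3 were higher (33.3%), and of 12 tested receptor features 4 were (33.3%), with the background of 4.69% as above. The median log2 fold change was 0.35 over the ligands and 0.98 over the receptors, but neither median was stable. With a library left out, the ligand median ran from -0.053 (without Normal replicate 1) to 0.93 (without Normal replicate 2). The receptor median ran from 0.21 (without EU-RNA replicate 2) to 1.47 (without Normal replicate 2). Each such fit filtered low counts anew and tested more of the whole table, so the members behind a median could differ. They did differ without EU-RNA replicate 1, without EU-RNA replicate 2 and without Normal replicate 1. In each of these fits the receptor median was the value of a single member. Without EU-RNA replicate 2 that member was ephb4.S, so an odd number of receptors was tested and not the 12 of the main fit. Over those 12 the median would lie between ephb4.S (0.21) and epha2.L (1.05). How far a change of members moved the medians was not tested. Members are not replicates of a condition, so the difference between ligands and receptors was not tested.

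Calls were also counted by class. Of 10 tested A-class features 4 were higher (40.0%), at a median of 1.29 on the log2 scale, and of 11 tested B-class features 3 were (27.3%), with a median of 0.74. Without EU-RNA replicate 2 the A-class median was 0.091, and without Normal replicate 1 the B-class median was 0.032. Here too the low-count filter was applied anew, so the members tested could differ from those of the main fit. The A-class median without EU-RNA replicate 2 was the value of efna3.L alone. An odd number of A-class features was thus tested there, and not the 10 of the main fit. Over those 10 the median would lie between efna3.L (0.091) and epha2.L (1.05). Split by role, calls fell on 3 of 5 tested EphA receptors and 1 of 7 EphB receptors, and on 1 of 5 ephrin-A and 2 of 4 ephrin-B ligands. In the ephrin-B and EphA classes all calls came from 3 genes, efnb2, epha4 and epha2. None of these contrasts between classes was tested.

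Summed over the 23 features, the family was at 1671 and 1318 CPM in the EU-RNA libraries and at 461 and 525 CPM in total RNA, a ratio of means of 3.03. By class, the ratio of mean summed CPM was 5.32 for ephrin-B ligands and 3.08 for EphA receptors. It was 2.28 for ephrin-A ligands and 2.22 for EphB receptors. These sums follow the members with most counts, and the 7 called features held 89.0% and 89.5% of the family's counts in EU-RNA and 70.7% and 71.5% in total RNA. The 7 were picked as higher in EU-RNA in these same libraries, so their larger share there follows from the selection and is no separate result.

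Ligands took 37.7% and 30.0% of the family's counts in the EU-RNA libraries and 26.2% and 28.2% in the total RNA libraries. The ligand share was thus higher in both EU-RNA libraries, and this rested on a single gene. The pair of efnb2 copies held 27.0% and 16.8% of the family's counts in EU-RNA and 7.17% and 9.60% in total RNA. With efnb2 set aside, ligands took 14.7% and 15.8% of what remained in EU-RNA and 20.5% and 20.6% in total RNA, which is the opposite order. A-class features took 49.1% and 62.1% in EU-RNA and 57.5% ± 0.721 in total RNA (SD, n = 2), and these overlapped. ephb4.L held 1.06% ± 0.191 of the family's counts in EU-RNA and 7.25% ± 1.91 in total RNA (SD, n = 2 each). Shares of counts carry transcript length with them and are not shares of molecules.

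**Figure D3:**
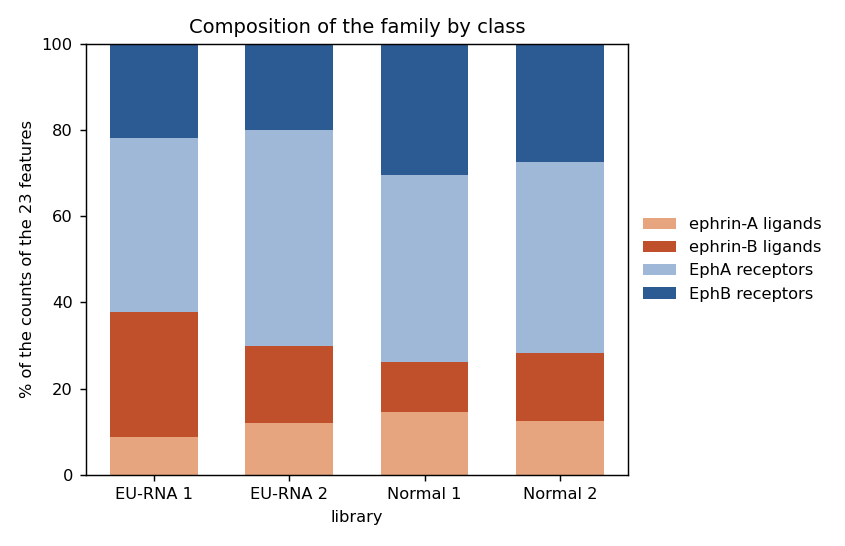
Share of the 23 features' counts that each class took in each library, in percent, as stacked bars that sum to 100. Ephrin-B ligands took 29.0% and 18.0% in EU-RNA against 11.6% and 15.7% in total RNA, and EphB receptors took 21.9% and 19.9% against 30.4% and 27.3%.

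The family held 5 pairs with both homeologs in the table, and in 2 of them, efnb2 and epha4, both copies were called. In 2 others, efna1 and ephb3, the L copy alone was called, which does not show that the copies differ. The difference between the L and S fold changes was therefore tested, as a choice made after their values were seen, with the interaction of homeolog and group in edgeR over 5708 homeologous pairs. None of the 5 family pairs passed, where 0.28% of all pairs did, although 3 had an unadjusted p below 0.05, as did 12.4% of all pairs. For efna1 the L copy held 95.9% and 97.7% of the pair's counts in EU-RNA and 83.3% and 82.5% in total RNA. The L minus S difference in log2 fold change was 2.71 (SE 0.53, edgeR adjusted p = 0.139). For ephb3 the L copy held 84.8% and 88.0% in EU-RNA and 79.8% and 70.2% in total RNA, a difference of 1.08 (SE 0.34, edgeR adjusted p = 0.282).

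The efnb2 pair went the other way. The L copy held 44.8% and 39.3% of the pair's counts in EU-RNA and 71.8% and 50.8% in total RNA. The L share was thus lower in both EU-RNA libraries, and in Normal replicate 2 the copies had nearly equal counts. The L minus S difference was -1.15 (SE 0.46, edgeR adjusted p = 0.392), with a wide gap between the total RNA libraries themselves. In epha4 the L share was 69.0% and 68.3% in EU-RNA and 61.6% and 63.1% in total RNA, and in ephb4 it was 74.4% and 73.1% in EU-RNA and 93.2% and 83.5% in total RNA. In each of the 5 pairs the EU-RNA shares lay outside the range of the total RNA shares, as they did in 46.5% of the 5101 pairs with counts in every library. With L and S copies summed to 1 feature per symbol, 5 of 16 tested symbols were higher, against 4.7% of all features so summed. The 5 were efna1 (log2 fold change 1.58, SE 0.24), efnb2 (2.98, SE 0.41), epha2 (1.17, SE 0.18), epha4 (1.87, SE 0.22) and ephb3 (1.57, SE 0.25). Reads shared by near-identical copies can be split wrongly between them. For efna1 and epha4 RefSeq also lists each copy's name as a synonym of the other, so which copy is called L may depend on the annotation.

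**Figure D4:**
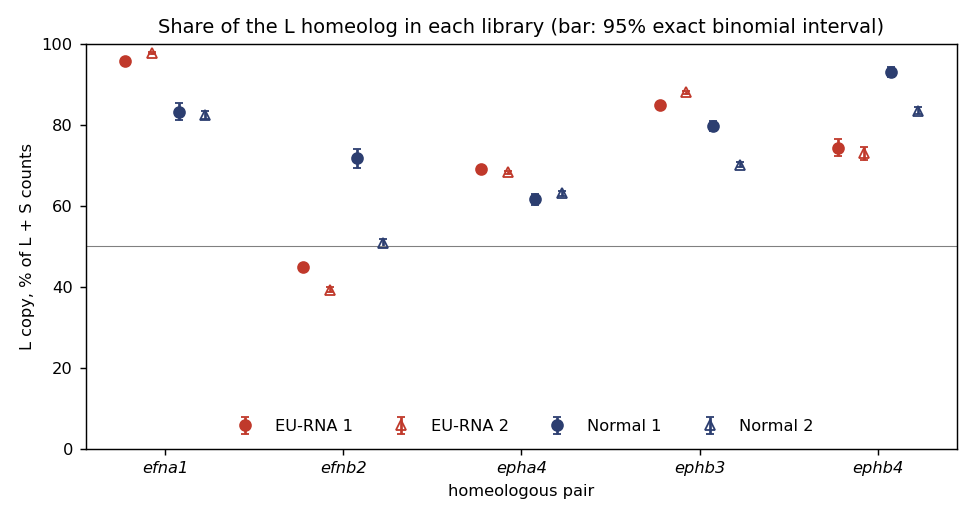
Share of the L copy in the counts of each homeologous pair, in percent, for each library, with exact Clopper-Pearson 95% intervals that cover counting error only. The EU-RNA symbols (red) lie above the total RNA symbols (blue) for efna1, epha4 and ephb3 and below them for efnb2 and ephb4.

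Genes that act with the family were mostly not called. A list of 47 partner symbols held kinases, adaptors, regulators of small GTPases, proteases that shed ephrins, and proteins that bind the ephrin-B tail. Of these, 43 matched 72 features, and 68 were tested. By edgeR 4 were higher (5.88%, against 4.69% of all features) and 4 were lower (also 5.88%, against 0.889% of all features). The median log2 fold change was -0.27. The share of higher calls was thus near that of the whole table. The share of lower calls was above it, but not in every fit, as given below.

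The higher partners were adam33.L, pard6b.S, crkl.S and rac1.L. adam33.L, whose product in Xenopus is known as the ephrin-B-cleaving metalloprotease ADAM13, averaged 88.4 ± 24.7 CPM over the EU-RNA libraries and 23.6 ± 2.91 CPM over the total RNA ones (SD, n = 2 each). Its log2 fold change was 1.90 (SE 0.28, edgeR adjusted p = 0.0178). pard6b.S encodes a cell polarity protein that binds the ephrin-B1 tail in Xenopus (log2 fold change 1.24, SE 0.19, edgeR adjusted p = 0.0188). The small GTPase gene rac1.L differed by 1.24 (SE 0.20, edgeR adjusted p = 0.0215). The adaptor gene crkl.S differed by 1.14 (SE 0.18, edgeR adjusted p = 0.0210), while its homeolog crkl.L was at -0.12 (SE 0.19), and the call was lost with the copies summed (0.37, edgeR adjusted p = 0.274).

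The lower partners included the Rac activator gene tiam1.S (log2 fold change -1.27, SE 0.22, edgeR adjusted p = 0.0298). Its homeolog tiam1.L was at -0.35 (SE 0.19) and was not called. The phosphatase gene ptpn11.L was also lower (-1.51, SE 0.28, edgeR adjusted p = 0.0344), while ptpn11.S, at -0.92 (SE 0.48), was not called. Another was the Src-family kinase gene yes1.L (-1.13, SE 0.21, edgeR adjusted p = 0.0352). Without Normal replicate 1 no partner was called lower (0.476% of all features). Without Normal replicate 2 (0.612% of all features) and with scaling by library size only (0.535%), ptpn11.L was the 1 lower partner.

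Of the higher partners, adam33.L was past the threshold whichever library was left out. Without Normal replicate 1 the calls of rac1.L (edgeR adjusted p = 0.0877) and crkl.S (edgeR adjusted p = 0.122) were lost, leaving 2 higher partners against 3.77% of all features. Without Normal replicate 2 those of pard6b.S (edgeR adjusted p = 0.0737) and crkl.S (edgeR adjusted p = 0.0610) were lost, leaving 2 against 5.52%. Without EU-RNA replicate 2 there were 8 higher partners, in the fit that called 14.9% of all features higher.

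**Figure D5:**
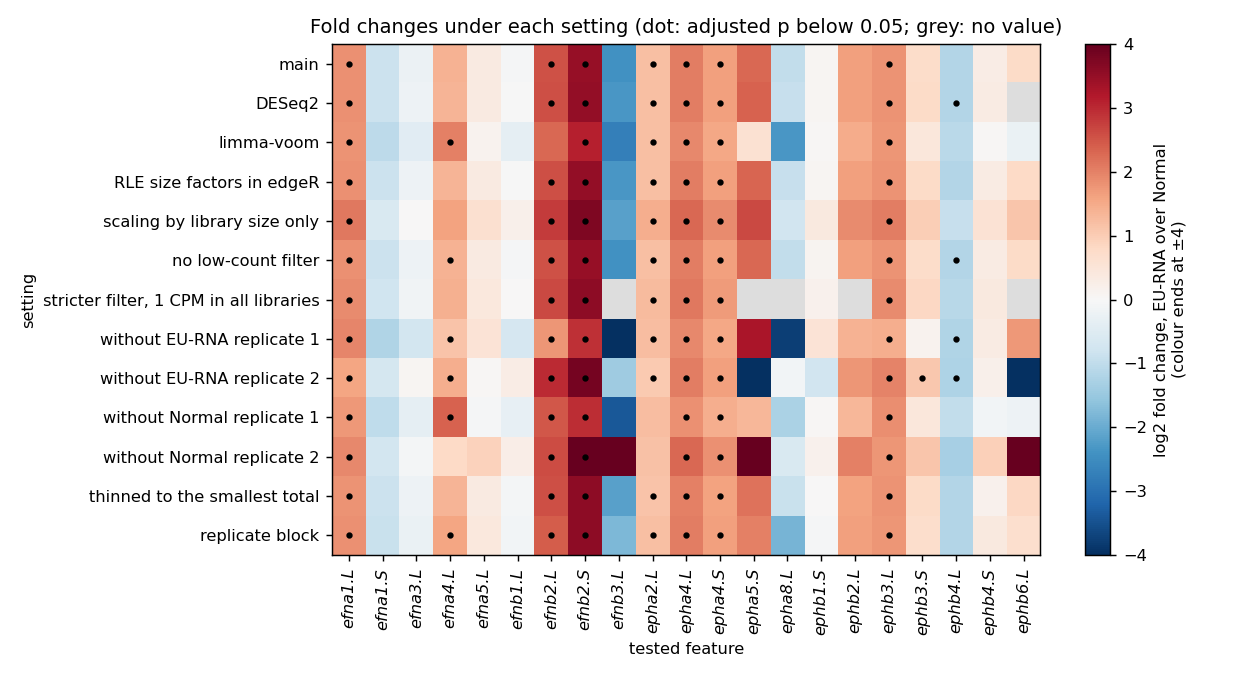
Log2 fold change of each tested member (columns) under each setting (rows), coloured from blue (lower in EU-RNA) to red (higher), with colours ending at 4 in either direction. Dots mark an adjusted p below 0.05, and grey marks a member for which the setting gave no adjusted p. The features efna1.L, efnb2.S, epha4.L, epha4.S and ephb3.L carry a dot in every row, while efnb3.L, epha5.S and ephb6.L change colour between rows.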

How the data were processed

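RNA was sequenced from 2 EU-RNA and 2 total RNA libraries of whole embryos. The authors deposited 1 table that gives each gene an estimated count, as a whole number, in each library. The submitters' processing notes name bcl2fastq and Salmon 0.12.0, and the table's name refers to tximport. The sources used here do not give the transcript set, build, length scaling or use of strand. The labels attach the injection protocol to all 4 samples, while the extraction text separates normal from EU-injected embryos, and the latter was followed.

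The estimated counts were rounded to whole numbers and fitted with edgeR 4.0.16 in R 4.3.3 (TMM, default filterByExpr, quasi-likelihood F-test, group as the only term, Benjamini-Hochberg adjustment over all features tested). DESeq2 1.42.0 and limma-voom 3.58.1 were alternatives. An SE here is the absolute log2 fold change (also called log2 ratio) over the root of F. CPM is the count scaled to a common, TMM-adjusted library total. The fits were tried on simulated data in which both groups had the same spread. The EU-RNA libraries here differed more from each other than the total RNA libraries did, which the simulation does not cover. Members, lists and tests were chosen with earlier results of these data known. Values are given for every member, and for partner genes for those called, except 1 lower partner that is not reported here. RefSeq's gene table matched 18 of 23 members. It was used for names and neighbours alone. No sequence was used. Intervals and floors (3 counts) cover counting error only.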

Additional observations from a re-analysis of the deposited data

How the results depend on the processing

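The count of 7 higher members was 7 or 8 under the alternatives that keep all 4 libraries and keep homeologs apart. In those fits 4.25% (limma-voom) to 12.7% (stricter filter) of all features were higher. With homeologs summed it was 5 symbols, where 4.7% of all features were higher. The count was less steady with a library left out. efna1.L, efnb2.S, epha4.L, epha4.S and ephb3.L were past the threshold in all 12 alternatives run on them. The count of 0 lower members was 1, ephb4.L, by DESeq2 and in edgeR with no low-count filter, and 0 to 1 with a library left out. None of the 7 called members changed sign. Of the others, efna3.L (0.027) and efnb1.L (0.19) turned positive with scaling by library size only, and each also did so elsewhere, as without EU-RNA replicate 2. The members efna5.L, efnb3.L, epha5.S, ephb1.S, ephb4.S and ephb6.L changed sign under some alternative as well. None of these members was past the threshold where its sign changed. Fits without an EU-RNA library assume that the lone one varies like total RNA, and call more of the whole table: 10.4% higher and 10.1% lower when EU-RNA replicate 1 was left out, or 14.9% and 17% when replicate 2 was.

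With a library left out, the median log2 fold change ranged from -0.053 to 0.93 for ligands and 0.21 to 1.47 for receptors. It ranged from 0.091 to 1.23 for the A class and 0.032 to 1.77 for the B class. The tested members could change with the library left out, because the low-count filter was applied anew. They did change without EU-RNA replicate 2, the fit that gave the low end for receptors and for the A class. They also changed without EU-RNA replicate 1 and without Normal replicate 1, where both of these medians were values of single members. The high end of the A class, 1.23, was the value of epha2.L without Normal replicate 1. By limma-voom the median was 0.52 for receptors, 0.91 for the A class and 0.054 for the B class. The median of all features by limma-voom was -0.21. The ligand median was 0.93 with the stricter filter of 1 CPM in all libraries, which tests fewer members. Scaling by library size only raised the A-class median to 1.54, while the median of all features rose to 0.28.

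Partner genes called higher numbered 2 to 8 with a library left out, where 3.77% to 14.9% of all features were. Those called lower numbered 0 to 21 with a library left out (0.476% to 17% of all features), 9 by DESeq2 (7.36%), 10 with no low-count filter (3.23%) and 1 when libraries were scaled by size alone (0.535%). The count of family pairs whose L and S fold changes differ was 0 to 1 with a library left out, and the pair called was efna1 (edgeR adjusted p = 0.00552 and 0.0272 without EU-RNA replicate 1 and 2). Where a change in the samples or features tested does not account for a shift, the cause was not tested.

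Both groups carry replicate numbers 1 and 2, but no label says that a number marks a shared clutch or day. The deviations of same-numbered libraries had a correlation of 0.000666 over features. With the replicate number as a block, 8 members were higher, efna4.L being added, 0 were lower, and 4 partners were higher and 7 lower, where 6.74% of all features were higher and 2.56% lower.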
